A study of Mus musculus with 12 samples.

Results

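The comparison described here is that of *Jmjd1a* HY/HY against wild type scWAT at 8°C. It takes 6 of the 12 libraries of the series, 3 from *Jmjd1a* HY/HY mice and 3 from *Jmjd1a* +/+ mice, and covers all 16540 genes that had enough reads to test. JMJD1A (gene symbol *Kdm3a*) removes methyl groups from lysine 9 of histone H3, and HY stands for H1122Y, a change of the iron-binding histidine that leaves the protein without demethylase activity. Mice of both groups were females on a C57BL/6J background, 16 weeks old, on chow, kept at 30°C for 1 week and then at 8°C for 1 week (cold exposed, CE). The other 6 libraries came from mice of the same 2 genotypes that stayed at 30°C (thermoneutral, TN). scWAT is subcutaneous white adipose tissue. The knock-in is present in every cell of the animal from conception, and the females belonged to 1 of the study's HY lines, so the comparison is not restricted to adipocytes. The libraries hold RNA of the whole tissue, in which fewer cells of a type and less RNA per cell cannot be told apart. Nothing in the labels gives the number of animals behind a library, and p-values measure the spread between these libraries.

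White fat stores triglyceride in a single large droplet, whereas beige adipocytes, which arise in subcutaneous fat during prolonged cold, burn fatty acids in numerous mitochondria and release the energy as heat through uncoupling protein 1. Norepinephrine from sympathetic nerves drives both lipolysis and the beige gene program, with the PGC-1 coactivators acting on the genes of mitochondria. Removal of methyl groups from H3K9 is associated with opening of chromatin at silent genes. In cultured beige adipocytes, however, the study reports open chromatin in both genotypes at the enhancers it examined.

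At 8°C, 731 genes were lower in HY/HY than in wild type, 4.42% of all genes tested, and 249 genes were higher, 1.51% of all genes tested. Calls required an adjusted p under 0.05 (edgeR quasi-likelihood test, Benjamini-Hochberg adjustment over all genes tested) and a fold change above 1.5 or below 0.67. Among the genes called lower the median log2 fold change was -1.07, and 398 genes were past 2-fold, 117 past 4-fold and 42 past 8-fold. The genes called higher changed by similar amounts at the median, 1.00 on the log2 scale, but only 127 were past 2-fold, 20 past 4-fold and 7 past 8-fold. The 2 groups did not overlap in 728 of the 731 lower genes and in 249 of the 249 higher genes. Where a called gene is said below not to overlap, this therefore adds little to its call. Of all genes tested, 19% had every HY/HY library below every wild-type library and 16.4% had every one above. The lower genes took 12.5% to 12.8% of all counted reads in the wild-type libraries and 5.52% to 6.71% in the HY/HY libraries. The higher genes took 1.08% to 1.25% in wild type and 2.42% to 3.18% in HY/HY. Scaling by library totals in place of TMM moved the median over all genes from 0.01 to 0.15 on the log2 scale, and the calls became 480 lower and 535 higher. The counts also depended on single libraries: 468 genes were lower without wild-type 8°C replicate 2, 347 without wild-type replicate 3, 348 without HY/HY replicate 1 and 301 without HY/HY replicate 3. For the higher genes the count was 106, 44 and 79 without wild-type replicates 1, 2 and 3, 68 without HY/HY replicate 1, 43 without HY/HY replicate 3, and 408 without HY/HY 30°C replicate 3.

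**Figure D1:**
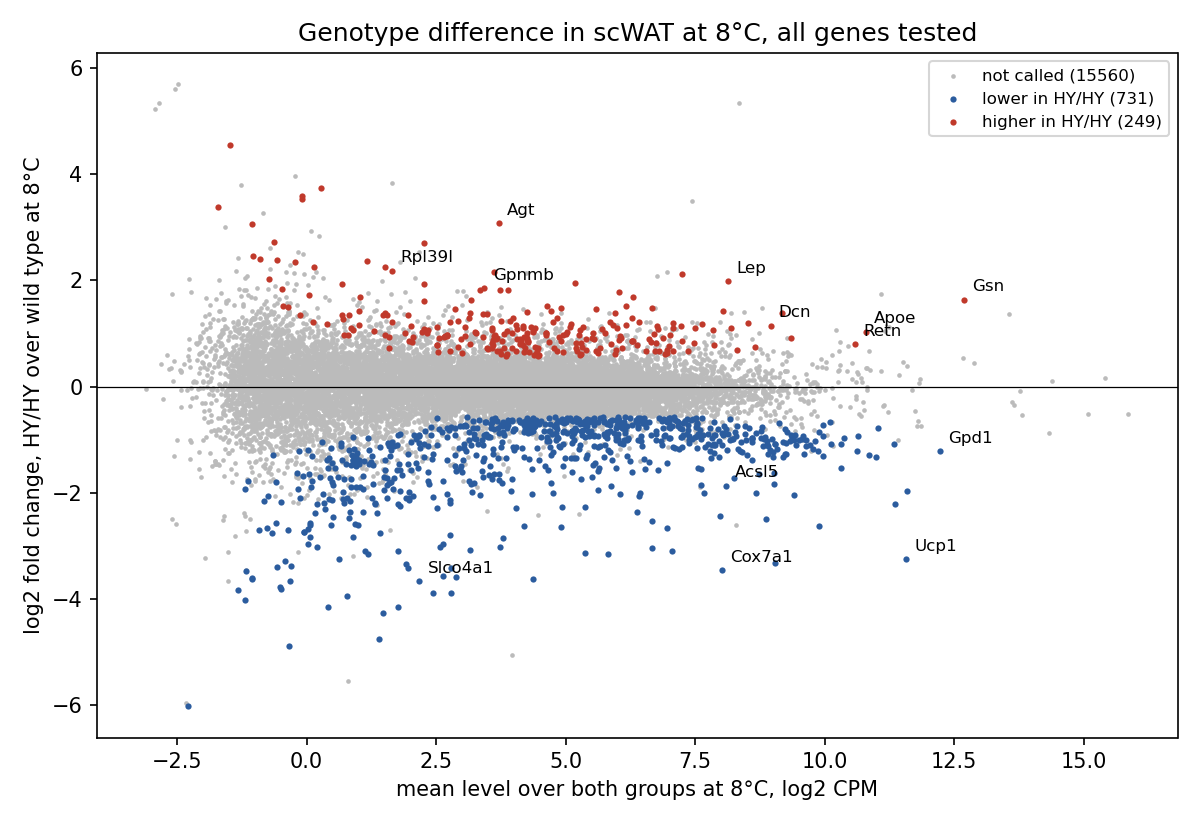
Log2 fold change of HY/HY over wild type at 8°C (vertical axis) against the mean level over both groups in log2 CPM (horizontal axis), 1 point per gene tested. The 731 genes called lower (blue) reach further from 0 than the 249 genes called higher (red), and single genes are marked by name, such as *Cox7a1* among the lower and *Agt*, *Lep* and *Gsn* among the higher.

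The 6 libraries held 13592629 to 17955584 counted read pairs. On the first principal component, which held 52.5% of the variance, the wild-type libraries lay together at -34.8 to -34.7, whereas HY/HY replicates 1, 2 and 3 lay at 33.0, 18.8 and 52.4. The tissue label held against its markers: *Fabp4*, the fatty acid carrier of fat cells, stood at 17756 to 26550 CPM (TMM-scaled counts relative to library size) in all 6 libraries, and *Adipoq* and *Plin1* were also abundant. *Kdm3a* itself stood at 35.7, 42.9 and 41.1 CPM in wild type and 45.8, 43.2 and 45.3 CPM in HY/HY (log2 fold change 0.17 ± 0.16 SE, adjusted p = 0.604), a level that does not check the genotype because H1122Y leaves the transcript in place. Within 2 Mb of *Kdm3a* on chromosome 6, 37 genes were tested, of which 4 were called lower (*Mrpl35*, *St3gal5*, *Kcmf1*, *Suclg1*) and 0 higher, where 4.42% of all genes were lower.

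Among the genes called lower with the smallest p were several of fatty acid activation, mitochondria and iron-sulfur proteins. *Acsl5* (chr19:55251861-55296628, GRCm38), which activates long-chain fatty acids by joining them to coenzyme A, stood at 398, 412 and 479 CPM in wild type and 114, 138 and 101 CPM in HY/HY (log2 fold change -1.87 ± 0.13 SE, adjusted p = 0.000156). All 3 HY/HY libraries lay below every wild-type library, as they did for each gene of this paragraph. *Sirt3* (chr7:140863663-140882309), the main protein deacetylase of mitochondria, was at 55.6, 49.3 and 49.9 CPM in wild type and 20.3, 21.6 and 19 CPM in HY/HY (log2 fold change -1.34 ± 0.13 SE, adjusted p = 0.000627). Levels of *Letmd1*, a mitochondrial protein of brown fat, were 290.5, 325 and 357 CPM in wild type and 79.6, 90.6 and 71.5 CPM in HY/HY (log2 fold change -2.01 ± 0.20 SE, adjusted p = 0.000629). *Cisd3* encodes an iron-sulfur protein of the mitochondrial matrix. It was counted at 142, 128 and 142 CPM in wild type and 48.6, 48 and 43.5 CPM in HY/HY (log2 fold change -1.55 ± 0.15 SE, adjusted p = 0.000629). *Ciapin1*, which acts in the assembly of cytosolic iron-sulfur proteins, had 73.3, 73.5 and 81.6 CPM in wild type and 31.2, 32.5 and 27.1 CPM in HY/HY (log2 fold change -1.33 ± 0.12 SE, adjusted p = 0.000627). None of these genes lost its call in any of the alternatives run. Picking by p favours a small spread between replicates and a kept call, so nothing is read from either. Of all 244 called lower genes that the naming rule picked, 114 kept their call.

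Enzymes of sugar and purine metabolism, folliculin and a carrier were also among the smallest p. *Fbp2*, the muscle form of fructose-1,6-bisphosphatase, was at 14.3, 18.3 and 15.3 CPM in wild type and 1.49, 2.63 and 1.54 CPM in HY/HY (log2 fold change -3.07 ± 0.27 SE, adjusted p = 0.000627). *Pgls*, an enzyme of the pentose phosphate pathway, was at 155, 169.5 and 152 CPM in wild type and 76.2, 76.8 and 69.4 CPM in HY/HY (log2 fold change -1.10 ± 0.11 SE, adjusted p = 0.000629). *Gmpr* converts GMP to IMP in purine metabolism. Its level was 56, 41.9 and 54.7 CPM in wild type and 9.58, 13.8 and 8.2 CPM in HY/HY (log2 fold change -2.27 ± 0.23 SE, adjusted p = 0.000711). *Flcn* (folliculin), which acts in mTORC1 signalling and restrains TFE3, was at 113, 122 and 118 CPM in wild type and 61.1, 61.3 and 50.3 CPM in HY/HY (log2 fold change -1.03 ± 0.10 SE, adjusted p = 0.000627). No HY/HY library reached the lowest wild-type library for any of these genes. The organic anion carrier *Slco4a1* was among both the smallest p and the largest falls, at 8.18, 8.98 and 8.02 CPM in wild type and 0.712, 0.75 and 0.487 CPM in HY/HY (log2 fold change -3.66 ± 0.35 SE, adjusted p = 0.000627).

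The largest falls among genes averaging 30 or more counts included *Cox7a1* and *Fabp3*, 2 abundant genes known from heart and muscle. They also included the low-abundance genes *Kng2*, *Bmp8b*, *Car14* and *Cpn2*. *Cox7a1* (chr7:30184171-30186030), the heart and muscle form of a cytochrome c oxidase subunit, was at 464, 493 and 468 CPM in wild type and 47.5, 59.5 and 22.8 CPM in HY/HY (log2 fold change -3.46 ± 0.41 SE, adjusted p = 0.00121). *Fabp3*, the heart-type fatty acid binding protein, was at 948, 724 and 1192 CPM in wild type and 92.9, 163 and 29.2 CPM in HY/HY (log2 fold change -3.33 ± 0.51 SE, adjusted p = 0.00356). For both genes HY/HY replicate 3 was the lowest and replicate 2 the highest of the HY/HY libraries, the order they took on the first principal component. *Kng2*, a kininogen, was at 43.2, 37.3 and 34.6 CPM in wild type and 2.33, 5.44 and 1.46 CPM in HY/HY (log2 fold change -3.62 ± 0.42 SE, adjusted p = 0.00109). *Bmp8b*, a secreted factor known to raise the response of brown fat to adrenergic signals, was at 7.51, 4.07 and 9.75 CPM in wild type and 0.777, 1.06 and 0.0812 CPM in HY/HY (log2 fold change -3.41 ± 0.57 SE, adjusted p = 0.00564). The carbonic anhydrase *Car14* and the carboxypeptidase subunit *Cpn2* had log2 fold changes of -3.89 and -3.56. In HY/HY these 4 low-abundance genes lay at 5.44 CPM or below.

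**Figure D2:**
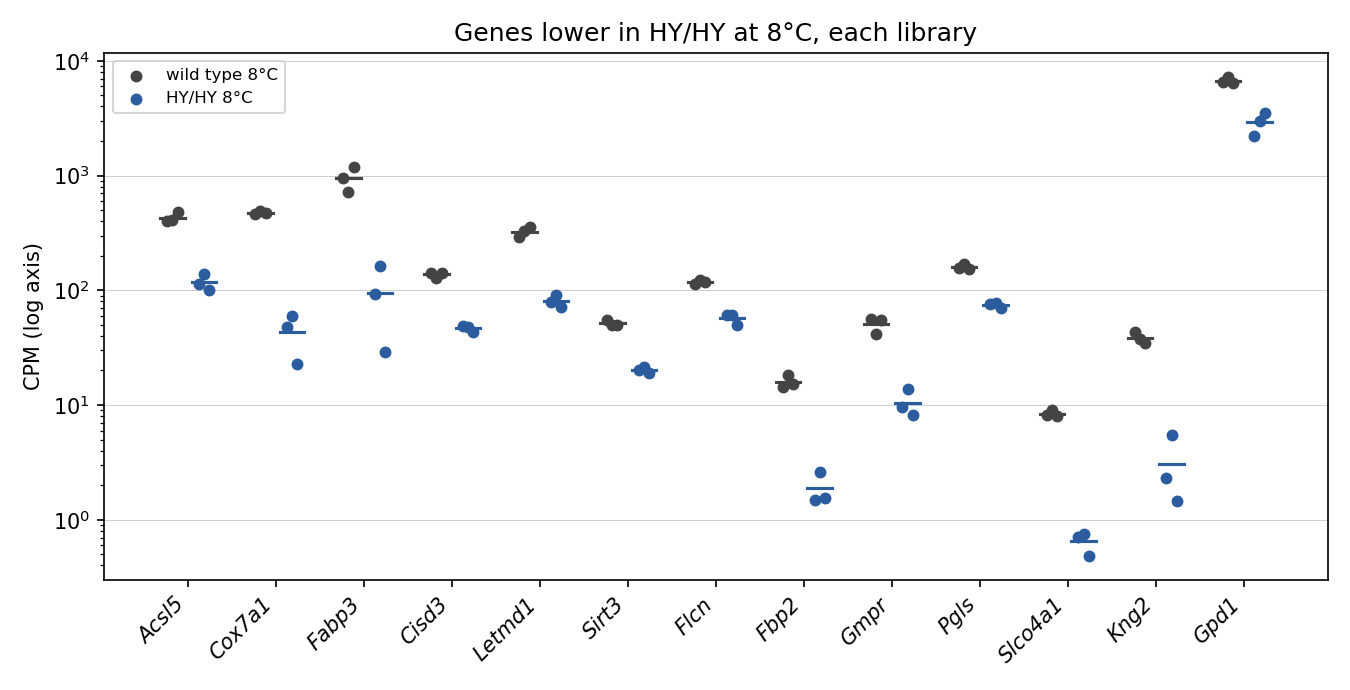
Level of 13 genes called lower in HY/HY at 8°C in each library (points, CPM on a log axis; grey wild type, blue HY/HY; bars are means of 3 libraries). The HY/HY points of every gene lie below the wild-type points.

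By read counts, the lower genes with most reads included *Gpd1*, *Gapdh*, *Eno1* and the ribosomal RNAs of mitochondria. The call of *Gapdh* was lost without any 1 of the 6 libraries at 8°C, with an adjusted p of up to 0.0797 without HY/HY replicate 1. *Gpd1*, glycerol-3-phosphate dehydrogenase, was at 6504, 7221 and 6375 CPM in wild type and 2227, 2965 and 3499 CPM in HY/HY (log2 fold change -1.21 ± 0.33 SE, adjusted p = 0.0447), and its call was lost without any 1 of the 6 libraries at 8°C, with an adjusted p of up to 0.168 without HY/HY replicate 1. *Eno1*, the glycolytic enzyme enolase 1, was at 2750, 2750 and 2351 CPM in wild type and 1069, 1221 and 916 CPM in HY/HY (log2 fold change -1.29 ± 0.27 SE, adjusted p = 0.0146), with an adjusted p of up to 0.0756 without HY/HY replicate 3. *mt-Rnr1*, the small ribosomal RNA of mitochondria, was at 4833, 4704 and 3458 CPM in wild type and 1014, 1056 and 724 CPM in HY/HY (log2 fold change -2.22 ± 0.37 SE, adjusted p = 0.00543). The large ribosomal RNA *mt-Rnr2* was at 6000, 5096 and 3558 CPM in wild type and 1363, 1462 and 904 CPM in HY/HY (log2 fold change -1.97 ± 0.35 SE, adjusted p = 0.00765). Both ribosomal RNAs separated the groups, whereas 0 of the 12 protein genes of mitochondrial DNA tested were called in the edgeR test, with a median log2 fold change of -0.52, and 7 of the 12 had every HY/HY library below every wild-type library, an order found in 19% of all genes. All reads on mitochondrial DNA made up 16% to 18% of counted reads in wild type and 12.2% to 12.9% in HY/HY.

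Among the gene lists of the mitochondrion the share called lower was largest for the respiratory chain. Of 36 subunits of complex I (NADH dehydrogenase), 33 were lower and 0 higher. The remaining 3 were *Ndufb2* at -0.68, *Ndufb3* at -0.51 and *Ndufs1* at -0.39 on the log2 scale. Of 45 subunits of complexes II to V, 37 were lower. The 8 without a call included the ATP synthase c-ring genes *Atp5g1* at 0.19 and *Atp5g3* at 0.11, although the third c-ring gene, *Atp5g2*, was lower at -0.61. The tricarboxylic acid cycle and pyruvate entry had 18 of 31 genes lower, from *Pdha1* at -0.67 to the NADP-dependent malic enzyme *Me3* at -2.79. In fatty acid oxidation 13 of 24 genes were lower, among them *Acadvl* (very long-chain acyl-CoA dehydrogenase) at 1795, 1928 and 1930 CPM in wild type and 681, 667 and 603 CPM in HY/HY (log2 fold change -1.53 ± 0.21 SE, adjusted p = 0.00243). Of the carnitine palmitoyltransferases of that list, the muscle form *Cpt1b* was lower at -2.76, and *Cpt1a* at 0.16 and *Cpt2* at -0.50 had no call. Leaving out 1 library at 8°C at a time gave 23 to 27 lower genes for complex I and 22 to 35 for complexes II to V, the lowest without HY/HY replicate 3. For the tricarboxylic acid cycle it gave 13 without wild-type replicate 1, 9 without wild-type replicate 2, 7 without wild-type replicate 3, and 6, 10 and 7 without HY/HY replicates 1, 2 and 3. Fatty acid oxidation had 8 to 10, the lowest without replicate 3 of either genotype.

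Lists of the machinery that builds mitochondria had smaller median differences. Of 76 proteins of the mitochondrial ribosome 25 were lower and 0 higher, with a median log2 fold change of -0.49 against 0.01 for all genes. Every HY/HY library lay below every wild-type library for 69 of the 76, an order found in 19% of all genes. Of 42 genes of protein import, chaperones and cristae 19 were lower (median -0.48), with *Chchd10* at -1.83 and *Letm1* at -1.17 as the largest of those called. Coenzyme Q, heme and iron-sulfur synthesis had 10 of 33 genes lower, 5 of them in the coenzyme Q pathway (*Coq6*, *Coq7*, *Coq8a*, *Coq9*, *Coq10a*). In the antioxidant list 4 of 32 genes were lower and 1 higher, where 4.42% and 1.51% of all genes were. The mitochondrial enzymes *Sod2*, *Prdx5*, *Txn2* and *Txnrd2* were lower, at -1.04, -0.61, -0.80 and -0.97, and *Prdx3* at -0.39 had no call. The call of *Prdx5* was lost with library totals and without HY/HY replicate 2, and that of *Txn2* without replicate 3 of either genotype. A glutathione transferase of the cytosol, *Gsta3*, was higher. Breakdown of branched-chain amino acids, which also takes place in mitochondria, had 2 of 24 genes lower (*Mcee*, *Bckdk*), or 8.33%. Peroxisomal oxidation had 3 of 30 lower (10%) and 1 higher (3.33%), where 4.42% and 1.51% of all genes were. Without wild-type replicate 3, HY/HY replicate 1 or HY/HY replicate 3, 0 peroxisomal genes were lower, and 1 or 2 were without another library at 8°C. The higher one was lost without any library at 8°C but HY/HY replicate 2. The call of *Bckdk* was lost likewise, and that of *Mcee* was kept in every alternative. Leaving out 1 library at 8°C at a time gave 17 to 25 lower genes for the mitochondrial ribosome and 8 to 15 for import (9 without wild-type replicate 3, 9 without HY/HY replicate 1 and 8 without HY/HY replicate 3). It gave 4 to 5 for coenzyme Q, heme and iron-sulfur synthesis whichever library was left out.

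**Figure D3:**
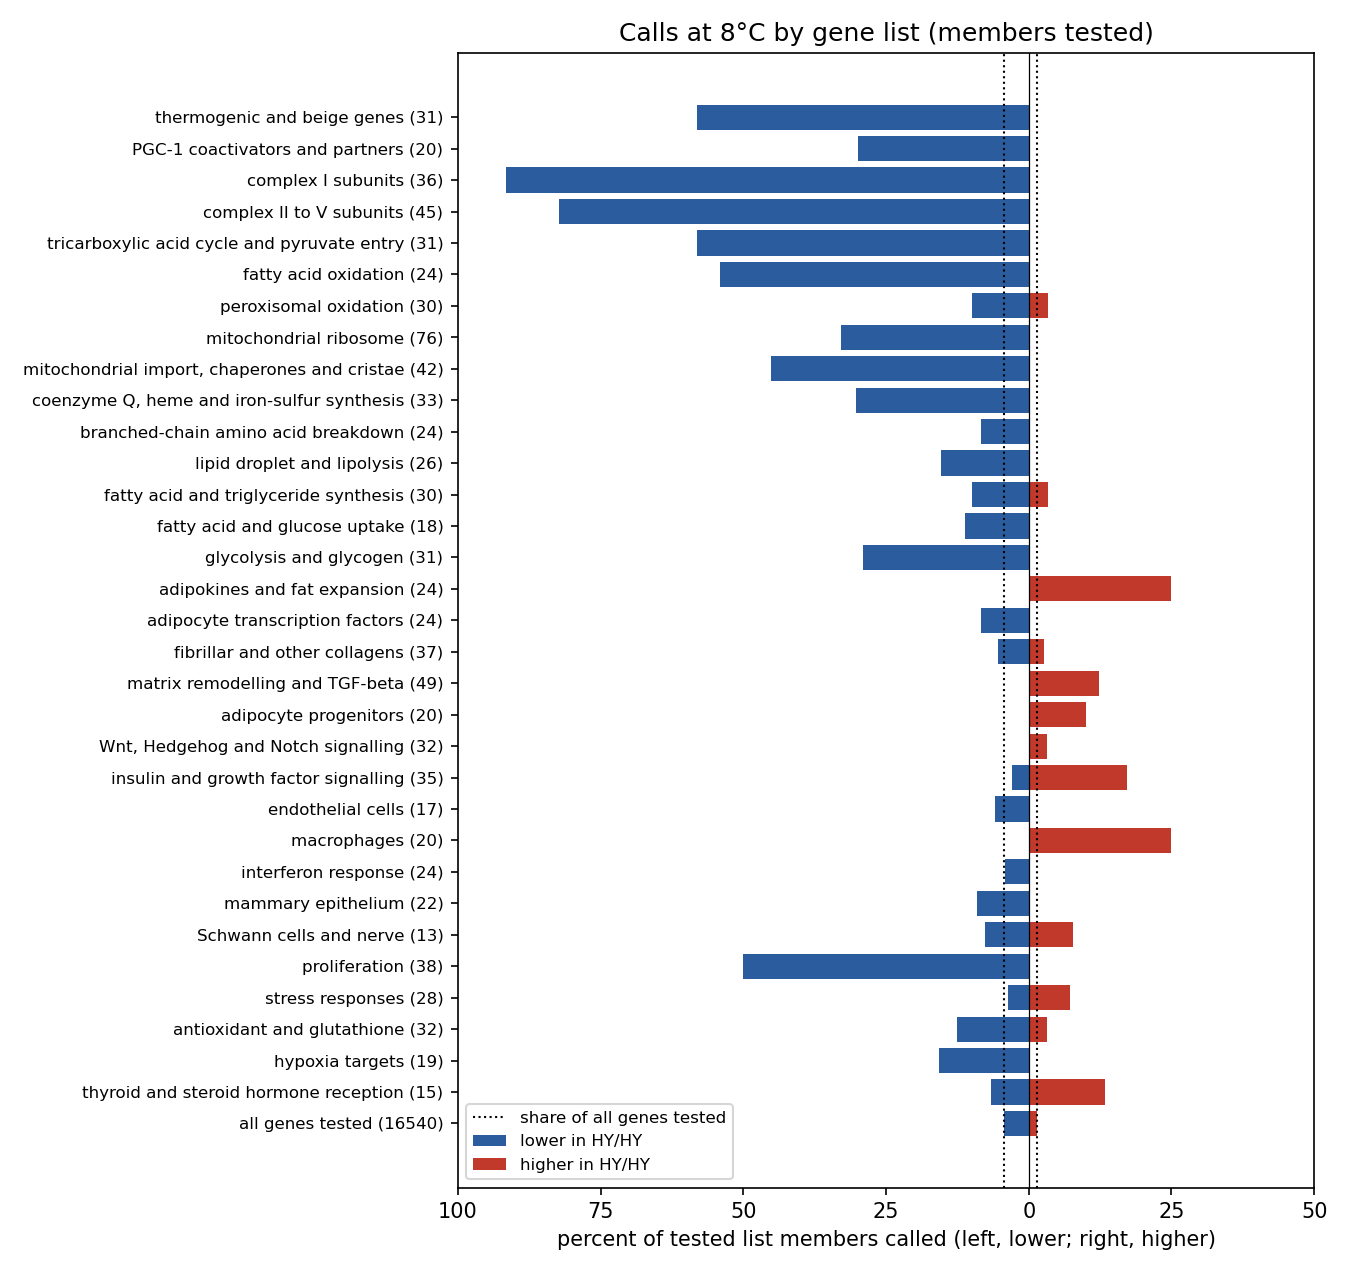
Percent of the tested members of each list called lower (blue, left) or higher (red, right) in HY/HY at 8°C, for the lists with at least 1 call, with the number of members tested in brackets. Dotted lines mark the 4.42% lower and 1.51% higher of all genes tested. The lists of the respiratory chain stand furthest to the left, and the lists of adipokines, macrophages and growth factors furthest to the right.

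Among the regulators, 6 of 20 PGC-1 coactivators and partners (*Sirt3* among them) were lower and 0 higher, and 3 were lower without HY/HY replicate 1. Of 31 thermogenic and beige genes 18 were lower and 0 higher, 9 without wild-type replicate 3 or HY/HY replicate 1, 10 without HY/HY replicate 3 and 11 without wild-type replicate 2. In that list *Ucp1* was lower at -3.25 (edgeR adjusted p = 0.0253), a call lost without any library at 8°C but HY/HY replicate 2. *Perm1*, a muscle factor induced by PGC-1, was at 23, 24.7 and 23.2 CPM in wild type and 2.65, 4.81 and 1.14 CPM in HY/HY (log2 fold change -3.02 ± 0.48 SE, adjusted p = 0.00406). *Ppargc1b* was at 19.7, 19.2 and 21.6 CPM in wild type and 5.57, 7.63 and 4.63 CPM in HY/HY (log2 fold change -1.76 ± 0.27 SE, adjusted p = 0.00331). *Gabpa*, the DNA-binding subunit of NRF-2, was at 53, 54.8 and 49.3 CPM in wild type and 29.6, 38.8 and 32.2 CPM in HY/HY (log2 fold change -0.64 ± 0.12 SE, adjusted p = 0.00767), and the call ended with library totals and without HY/HY replicate 1. The genotypes did not overlap in *Perm1*, *Ppargc1b* or *Gabpa*. *Ppargc1a* was at 17.6, 35.9 and 25.7 CPM in wild type and 8.48, 14.6 and 8.44 CPM in HY/HY (log2 fold change -1.32 ± 0.34 SE, adjusted p = 0.0346), with an adjusted p of up to 0.148 without wild-type replicate 2. *Esrra*, the orphan receptor that partners PGC-1, was at 133, 139 and 146 CPM in wild type and 68.3, 73.7 and 82.3 CPM in HY/HY (log2 fold change -0.90 ± 0.21 SE, adjusted p = 0.0252), with an adjusted p of up to 0.105 without HY/HY replicate 1. Of 24 transcription factors of adipocytes 2 were lower, or 8.33%, where 4.42% of all genes were. These 2 were *Cebpb* at 54.8, 125 and 98.7 CPM in wild type and 25.2, 25.2 and 25.7 CPM in HY/HY (log2 fold change -1.87 ± 0.29 SE, adjusted p = 0.00356) and the immediate early gene *Nr4a1* at -1.59, whose call was lost without any library at 8°C but wild-type replicate 1. *Pparg*, the receptor that defines adipocytes, was at 164, 214 and 189.6 CPM in wild type and 172, 192 and 263 CPM in HY/HY (log2 fold change 0.14 ± 0.24 SE, adjusted p = 0.779) and had no call.

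Promoters of *Timm8b* and some lower respiratory chain genes are shown because they hold letters known to bind CREB or partners of PGC-1. Each runs from 250 bases before to 50 bases after the start of the gene, from RefSeq on GRCm38.p6, 5′ to 3′ on the strand of the gene, and capitals mark the motif. *Timm8b* (import of inner membrane proteins) and *Sdhd* (complex II) start from opposite strands of chromosome 9, and the window of *Timm8b*, chr9:50603651-50603950 on the plus strand, holds TCAAGGTCA (estrogen-related receptors) 96 bases before its start. The window of *Atp5k*, a subunit of ATP synthase, chr5:108434350-108434649 on the minus strand, holds the NRF1 palindrome, capitalised in its sequence. *Cox8a*, a subunit of cytochrome c oxidase, chr19:7217567-7217866 on the minus strand, holds CCGGAAGT (GABP) 2 times on the opposite strand. *Ndufa11*, a subunit of complex I, chr17:56717512-56717811 on the plus strand, holds TGACGTCA (CREB) and then the NRF1 palindrome.
Timm8b: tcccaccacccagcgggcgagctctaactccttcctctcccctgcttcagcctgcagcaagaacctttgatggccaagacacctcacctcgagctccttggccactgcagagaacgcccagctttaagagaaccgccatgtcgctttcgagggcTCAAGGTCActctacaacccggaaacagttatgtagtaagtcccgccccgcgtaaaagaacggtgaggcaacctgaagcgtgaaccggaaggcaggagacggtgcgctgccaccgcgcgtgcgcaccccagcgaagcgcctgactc
Atp5k: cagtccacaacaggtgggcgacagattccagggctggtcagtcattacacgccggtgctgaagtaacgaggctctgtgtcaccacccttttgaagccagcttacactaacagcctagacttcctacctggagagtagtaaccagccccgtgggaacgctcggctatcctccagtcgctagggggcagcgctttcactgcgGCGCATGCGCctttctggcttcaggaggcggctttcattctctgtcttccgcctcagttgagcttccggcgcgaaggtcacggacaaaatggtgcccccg
Cox8a: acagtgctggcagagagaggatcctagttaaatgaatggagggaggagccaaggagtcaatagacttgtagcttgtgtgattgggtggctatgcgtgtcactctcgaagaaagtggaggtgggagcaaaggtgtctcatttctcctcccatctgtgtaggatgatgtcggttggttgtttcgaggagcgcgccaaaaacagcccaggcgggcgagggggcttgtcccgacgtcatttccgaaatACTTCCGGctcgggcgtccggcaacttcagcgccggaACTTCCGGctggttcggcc
Ndufa11: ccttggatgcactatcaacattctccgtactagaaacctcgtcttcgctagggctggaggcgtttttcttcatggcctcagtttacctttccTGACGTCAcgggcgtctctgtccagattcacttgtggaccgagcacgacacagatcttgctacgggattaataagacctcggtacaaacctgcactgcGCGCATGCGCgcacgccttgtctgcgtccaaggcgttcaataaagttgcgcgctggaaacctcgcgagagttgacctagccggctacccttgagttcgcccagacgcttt

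The letters in the *Timm8b* window lie 36 bases into *Sdhd*, so the pair shares them. *Timm8b* was at 108, 96.8 and 116 CPM in wild type and 64.2, 59.7 and 63 CPM in HY/HY (log2 fold change -0.78 ± 0.11 SE, adjusted p = 0.00281), and *Sdhd* was at 710.0, 743 and 689.5 CPM in wild type and 327, 356 and 331 CPM in HY/HY (log2 fold change -1.08 ± 0.19 SE, adjusted p = 0.00655). *Ndufa11* was at 216, 194 and 193 CPM in wild type and 97.6, 87.2 and 81.8 CPM in HY/HY (log2 fold change -1.18 ± 0.16 SE, adjusted p = 0.0021). Those 3 genes kept their calls in every alternative. *Atp5k* (log2 fold change -1.08 ± 0.22 SE, adjusted p = 0.0136) and *Cox8a* (log2 fold change -0.91 ± 0.17 SE, adjusted p = 0.0105) lost theirs without HY/HY replicate 1 or 3, with an adjusted p of 0.0667 and 0.0597 without replicate 3, and *Atp5k* also without wild-type replicate 2.

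Each motif was searched on both strands in 1 promoter per gene, for 543 lower genes, 163 higher genes and 11148 genes tested, and the shares are a description without a test. TCAAGGTCA was found in 0.737% of the lower genes, 0% of the higher genes and 0.26% of all genes tested. The NRF1 palindrome was found in 2.03%, 0% and 1.93%. For CCGGAAGT the shares were 7.37%, 1.23% and 7.79%, for TGACGTCA 4.24%, 0.613% and 3.08%, and for CACGTG (E-box) 9.21%, 6.75% and 9.96%. The 59 lower subunits of complexes I to V with a promoter held the NRF1 palindrome in 8.47% (5 promoters), TCAAGGTCA in 1.69% (1 promoter), CCGGAAGT in 8.47%, TGACGTCA in 6.78% and CACGTG in 6.78%. Over all 27025 promoters of the table, expressed or not, TCAAGGTCA stood in 0.407%, the NRF1 palindrome in 0.977%, CCGGAAGT in 4%, TGACGTCA in 1.88% and CACGTG in 7.24%.

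Glycolysis, lipid handling and cell division made up further lower genes. In glycolysis and glycogen 9 of 31 genes were lower and 0 higher, with *Ldhb*, the heart form of lactate dehydrogenase, at 472, 458 and 466 CPM in wild type and 140.4, 151 and 134 CPM in HY/HY (log2 fold change -1.71 ± 0.24 SE, adjusted p = 0.00251). The lactate and ketone carrier *Slc16a1* (MCT1) was at 182, 157 and 159 CPM in wild type and 87.3, 57.3 and 22.8 CPM in HY/HY (log2 fold change -1.57 ± 0.36 SE, adjusted p = 0.023). The call of *Slc16a1* was lost without any wild-type library or HY/HY replicate 2, at an adjusted p of up to 0.0721 without wild-type replicate 1. *Pfkl*, *Gpi1*, *Gapdh*, *Pgk1*, *Pgam1*, *Eno1* and *Pkm* ranged from -1.38 to -0.90. The count was 6 without HY/HY replicate 2, and 3 to 5 without any other library at 8°C, the lowest without HY/HY replicate 3. Among 26 genes of the lipid droplet and lipolysis 4 were lower (*Plin5*, *Cidea*, *Cideb*, *Lipa*), and *Plin5*, which joins droplets to mitochondria, was at 129.5, 137 and 148 CPM in wild type and 29.2, 33.6 and 18.3 CPM in HY/HY (log2 fold change -2.35 ± 0.35 SE, adjusted p = 0.0032). The glycerol kinase *Gk* and the acyltransferase *Agpat3* (-0.74) were lower besides *Gpd1* among 30 genes of fatty acid and triglyceride synthesis, and the desaturase *Fads1* (0.69) was higher. The calls of *Plin5* and *Gk* were kept in every alternative. Without 1 library at 8°C the count of lower droplet genes was 3 without HY/HY replicate 2, 1 without wild-type replicate 2 or HY/HY replicate 1 and 2 otherwise. The count of lower synthesis genes was 1 without wild-type replicate 2 or without replicate 3 of either genotype, and the call of *Fads1* was lost without any library at 8°C but HY/HY replicate 2. Synthesis and uptake of cholesterol (24 genes), the circadian clock (19) and enzymes of H3K9 methylation (19) had 0 calls in the edgeR test. With 4.42% of all genes lower and 1.51% higher, lists of this size would hold few calls. Of the H3K9 enzymes 9 lay wholly above and 2 wholly below wild type, where 16.4% and 19% of all genes did. For cholesterol these counts were 7 and 2, and for the clock 2 and 1.

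Of 38 proliferation genes 19 were lower and 0 higher, with a median of -1.47. *Mki67*, a marker of dividing cells, was at 46.7, 19.6 and 31.8 CPM in wild type and 5.5, 13.2 and 5.36 CPM in HY/HY (log2 fold change -2.02 ± 0.41 SE, adjusted p = 0.0128). Its adjusted p went up to 0.0666 without HY/HY replicate 3. The wild-type libraries ranged widely for this gene, and the lowest of them lay not far above the highest HY/HY library. *Rrm2*, which makes deoxynucleotides, was at 17.3, 10.6 and 16.2 CPM in wild type and 2.85, 6.31 and 3.33 CPM in HY/HY (log2 fold change -1.81 ± 0.30 SE, adjusted p = 0.00516). The count of proliferation genes was 1 without HY/HY replicate 3, 2 without HY/HY replicate 1, 5 and 8 without wild-type replicates 1 and 3, and 16 and 21 without HY/HY replicate 2 and wild-type replicate 2. Summed CPM of the list was 292 to 504 in wild type and 199.6 to 250.2 in HY/HY.

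The genes higher in HY/HY included adipokines, growth factor and hormone signalling, matrix proteins and markers of macrophages. The largest rise by the rule was *Agt* (chr8:124556587-124569706), angiotensinogen, at 0.669, 1.66 and 5.77 CPM in wild type and 24.5, 14.3 and 31.5 CPM in HY/HY (log2 fold change 3.08 ± 0.67 SE, adjusted p = 0.0185). All HY/HY libraries lay above wild type, although the wild-type libraries differed among themselves, and the adjusted p was 0.0835 without wild-type replicate 2. Leptin, *Lep* (chr6:29060221-29073876), the hormone that reports fat stores to the brain, was at 106, 78 and 155 CPM in wild type and 397, 259 and 689.5 CPM in HY/HY (log2 fold change 1.99 ± 0.47 SE, adjusted p = 0.0266), with an adjusted p of up to 0.119 without HY/HY replicate 3. *Retn*, resistin, was at 1172, 1145 and 1064 CPM in wild type and 1998, 1639 and 2230 CPM in HY/HY (log2 fold change 0.80 ± 0.20 SE, adjusted p = 0.0362), and up to 0.139 without HY/HY replicate 3. *Psat1*, an enzyme of serine synthesis, was at 37.9, 42.5 and 54 CPM in wild type and 90.2, 86.8 and 153 CPM in HY/HY (log2 fold change 1.29 ± 0.28 SE, adjusted p = 0.0188), and up to 0.0838 without HY/HY replicate 3. With *Dpt* (1.20) and *Serpina3c* (1.38), these made 6 higher genes of 24 adipokines and genes of fat expansion, and 0 lower. *Adipoq*, adiponectin, was at 1214, 1529 and 1747 CPM in wild type and 3197, 2639 and 3413 CPM in HY/HY, without overlap but without a call (log2 fold change 1.04 ± 0.33 SE, adjusted p = 0.0767). The count of higher genes in this list was 0 without wild-type replicate 1, wild-type replicate 2 or HY/HY replicate 3, 1 without HY/HY replicate 1, 2 without wild-type replicate 3 and 6 without HY/HY replicate 2.

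The higher genes with the smallest p kept their calls in every alternative, which picking by p favours. Of all 53 called higher genes that the naming rule picked, 13 kept theirs. *Clmp* (chr9:40682123-40785553), an adhesion molecule of tight junctions found in adipocytes, was at 39.8, 32.4 and 39.4 CPM in wild type and 92.5, 106 and 122 CPM in HY/HY (log2 fold change 1.52 ± 0.15 SE, adjusted p = 0.000627). *Heph* (chrX:96455436-96574485), the ferroxidase hephaestin that acts in iron export, was at 18.2, 22.4 and 23.2 CPM in wild type and 44.9, 43.8 and 50.7 CPM in HY/HY (log2 fold change 1.12 ± 0.13 SE, adjusted p = 0.00104). *Ctsc*, the lysosomal protease cathepsin C, was at 38.1, 37.2 and 36.3 CPM in wild type and 88.2, 66.5 and 94.9 CPM in HY/HY (log2 fold change 1.16 ± 0.14 SE, adjusted p = 0.00121). For each of these 3 genes the lowest HY/HY library exceeded the highest wild-type library. *Slc29a3*, a nucleoside carrier of lysosomes, was at 13.4, 13.4 and 13.3 CPM in wild type and 24, 23.8 and 21.1 CPM in HY/HY (log2 fold change 0.78 ± 0.10 SE, adjusted p = 0.00209). *Scn7a*, a sodium channel also present in Schwann cells, was at 45.4, 40.4 and 42.1 CPM in wild type and 74.7, 73.2 and 74.9 CPM in HY/HY (log2 fold change 0.80 ± 0.11 SE, adjusted p = 0.00243). *Cachd1*, a subunit-like protein of calcium channels, was at 14.6, 13.1 and 11 CPM in wild type and 35.4, 32.9 and 43.4 CPM in HY/HY (log2 fold change 1.53 ± 0.21 SE, adjusted p = 0.00218). *Tcaf1*, *Gsdme* and *Atp6v0d2* followed with log2 fold changes of 0.92, 1.82 and 2.25.

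**Figure D4:**
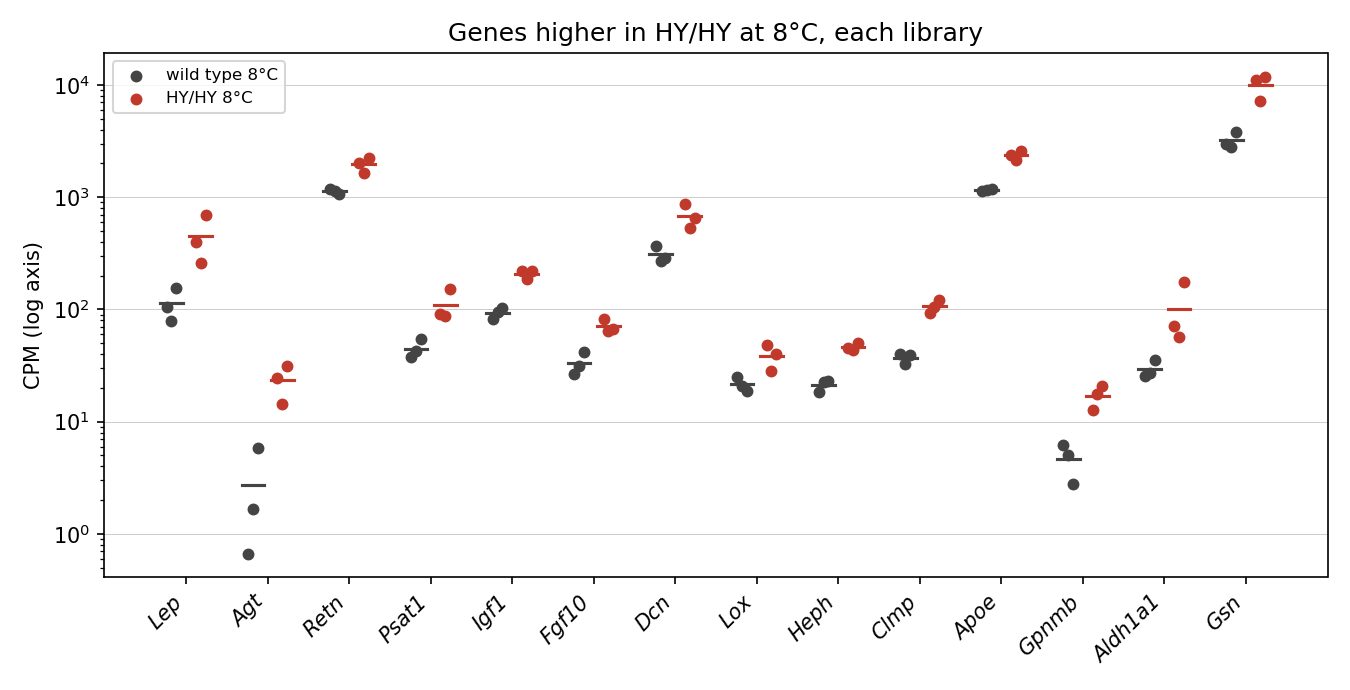
Level of 14 genes called higher in HY/HY at 8°C in each library (points, CPM on a log axis; grey wild type, red HY/HY; bars are means of 3 libraries). The HY/HY points of every gene lie above the wild-type points, as they do for all 249 higher genes, with the widest spread between wild-type libraries for *Agt*.

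By read counts, *Gsn* and *Apoe* led the higher genes. *Gsn*, gelsolin, which cuts actin filaments, was at 2980, 2812 and 3813 CPM in wild type and 10958, 7114 and 11786 CPM in HY/HY (log2 fold change 1.64 ± 0.32 SE, adjusted p = 0.0123), with an adjusted p of up to 0.0614 without wild-type replicate 2. Apolipoprotein E, *Apoe*, was at 1130, 1167 and 1183 CPM in wild type and 2397, 2159 and 2569 CPM in HY/HY (log2 fold change 1.03 ± 0.17 SE, adjusted p = 0.00431) and kept its call in every alternative. *Aoc3* (an amine oxidase of adipocytes and vessels) and *App* (amyloid precursor protein) had log2 fold changes of 0.92 and 0.75, with adjusted p of up to 0.188 and 0.121 when 1 library at 8°C was left out. Among the largest rises, *Fgf13* at 11.4, 16.2 and 17.3 CPM in wild type and 41.1, 48.6 and 84.4 CPM in HY/HY (log2 fold change 1.95 ± 0.32 SE, adjusted p = 0.00483) kept its call throughout. *Aldh1a1*, a retinaldehyde dehydrogenase of white fat, was at 25.3, 27.4 and 35.1 CPM in wild type and 70.6, 56.3 and 176 CPM in HY/HY (log2 fold change 1.78 ± 0.40 SE, adjusted p = 0.0203), with an adjusted p of up to 0.0824 without wild-type replicate 1. HY/HY replicate 3 was well above the other HY/HY libraries for *Aldh1a1*. *Abat*, GABA transaminase, was at 2.23, 1.96 and 1.8 CPM in wild type and 6.73, 5 and 11.3 CPM in HY/HY (log2 fold change 1.94 ± 0.39 SE, adjusted p = 0.0131), and the GABA and betaine carrier *Slc6a13* was at 2.75, 4.68 and 12.1 CPM in wild type and 20.3, 18.5 and 30.9 CPM in HY/HY (log2 fold change 1.82 ± 0.49 SE, adjusted p = 0.0443). *Dclk3* and the carrier *Slc16a12* rose by 2.36 and 1.82 on the log2 scale. Their adjusted p went up to 0.0624 without wild-type replicate 3 for *Abat*, 0.169 without wild-type replicate 2 for *Slc6a13*, 0.132 without wild-type replicate 2 for *Dclk3* and 0.154 without HY/HY replicate 3 for *Slc16a12*. *Gsta3* was at 63.5, 54 and 52 CPM in wild type and 179, 85.6 and 471 CPM in HY/HY (log2 fold change 2.12 ± 0.56 SE, adjusted p = 0.0404), and up to 0.18 without HY/HY replicate 3.

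Of 35 genes of insulin and growth factor signalling 6 were higher and 1 lower (*Fgf9*, -2.39, a call lost in 11 of 20 alternatives, among them the omission of any 1 library at 8°C). *Igf1*, insulin-like growth factor 1, was at 81.6, 95.4 and 104 CPM in wild type and 218, 186 and 219 CPM in HY/HY (log2 fold change 1.15 ± 0.23 SE, adjusted p = 0.0141). Its upstream receptor *Ghr*, for growth hormone, was at 304, 315 and 336 CPM in wild type and 854, 603 and 1050 CPM in HY/HY (log2 fold change 1.39 ± 0.31 SE, adjusted p = 0.0193). *Pik3r1*, the regulatory subunit of PI3-kinase, was at 134, 123 and 109 CPM in wild type and 264, 218 and 348 CPM in HY/HY (log2 fold change 1.18 ± 0.23 SE, adjusted p = 0.0123). Every HY/HY library was above wild type for each of these genes, and their adjusted p went up to 0.0628 without wild-type replicate 1 (*Igf1*), 0.0856 without HY/HY replicate 3 (*Ghr*) and 0.0624 without wild-type replicate 3 (*Pik3r1*). *Fgf10*, a growth factor of adipocyte precursors, was at 26.8, 31.4 and 41.8 CPM in wild type and 82.8, 64.1 and 66.6 CPM in HY/HY (log2 fold change 1.09 ± 0.26 SE, adjusted p = 0.0253). Its adjusted p went up to 0.102 without wild-type replicate 1. *Egfr* and *Fgf7* had log2 fold changes of 1.01 and 1.22. The count of higher genes in the list was 0 without wild-type replicate 2, 1 without HY/HY replicate 1 or 3, 3 without wild-type replicate 1 or 3 and 5 without HY/HY replicate 2.

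Of 49 genes of matrix remodelling and TGF-beta signalling 6 were higher and 0 lower. *Dcn*, decorin, a proteoglycan that binds collagen fibrils, was at 365, 271 and 289 CPM in wild type and 865, 527 and 658 CPM in HY/HY (log2 fold change 1.15 ± 0.27 SE, adjusted p = 0.0244). *Lum*, lumican, was at 86.5, 69.8 and 78 CPM in wild type and 159, 133 and 122 CPM in HY/HY (log2 fold change 0.82 ± 0.18 SE, adjusted p = 0.0207). *Lox*, which cross-links collagen, was at 25, 20.7 and 18.7 CPM in wild type and 47.9, 28.1 and 40.4 CPM in HY/HY (log2 fold change 0.85 ± 0.21 SE, adjusted p = 0.0298). Both groups were apart for all 3, with the smallest gap in *Lox*, and the adjusted p went up to 0.103 without wild-type replicate 2 (*Dcn*), 0.0917 without wild-type replicate 2 (*Lum*) and 0.122 without HY/HY replicate 1 (*Lox*). *Adamts5*, *Thbs2* and *Inhbb* had log2 fold changes of 1.01, 1.48 and 0.85. The count was 0 without wild-type replicate 2, 1 without wild-type replicate 3, HY/HY replicate 1 or HY/HY replicate 3, and 5 without either of the remaining libraries at 8°C. Of 37 collagens, with a median log2 fold change of 0.40 against 0.41 for the matrix list, *Col15a1* (0.78) was higher and *Col11a2* (-1.38) and *Col27a1* (-1.03) were lower, shares near those of all genes, and 11 lay wholly above and 4 wholly below wild type, where 16.4% and 19% of all genes did. Of the collagen calls that of *Col27a1* was kept in every alternative, while those of *Col11a2* and *Col15a1* were lost without any 1 library at 8°C. Of 20 adipocyte progenitor genes *Fap* (0.86) and *Col15a1* were higher, and the count was 1 without wild-type replicate 1 or HY/HY replicate 2 and 0 without any other library at 8°C.

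Of 20 markers of macrophages 5 were higher and 0 lower, and the count was 5 without HY/HY replicate 2 and 2 or 3 without any other library at 8°C. *Mrc1*, the mannose receptor, was at 14.2, 16.1 and 18.5 CPM in wild type and 45.6, 32.3 and 36.1 CPM in HY/HY (log2 fold change 1.22 ± 0.20 SE, adjusted p = 0.00534). *Csf1r*, the receptor for the macrophage growth factor CSF-1, was at 22.9, 22.1 and 18.3 CPM in wild type and 58, 38.4 and 46.4 CPM in HY/HY (log2 fold change 1.18 ± 0.23 SE, adjusted p = 0.0119). *Gpnmb*, a glycoprotein of lipid-loaded macrophages, was at 6.24, 5.05 and 2.76 CPM in wild type and 12.6, 17.6 and 20.6 CPM in HY/HY (log2 fold change 1.86 ± 0.35 SE, adjusted p = 0.0104). The groups did not overlap for any of the 3, and *Csf1r* went up to an adjusted p of 0.0597 without wild-type replicate 3. *Cd163* (1.29) and *C1qc* (0.81) completed the count. *Adgre1* (F4/80) and *Cd68* had log2 fold changes of 0.96 and 0.64 and no call. The summed level of the list was 414 to 452 CPM in wild type and 569 to 666 CPM in HY/HY. Its part in the higher genes that macrophages also express, such as *Apoe*, *Ctsc* and *Atp6v0d2*, was not tested.

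Summed levels of other cell type lists, which a few abundant members can carry, did not overlap between the groups for 6 lists. They were lower in HY/HY for endothelial cells (1386 to 1781 CPM against 1952 to 2246), mammary epithelium (2011 to 3271 against 3392 to 3876), erythrocytes (117.9 to 236.1 against 241.2 to 329.4) and skeletal muscle (67.5 to 73.0 against 82.5 to 88.8). They were higher for MHC class II genes (600.1 to 827 against 369 to 560.1) and keratinocytes (142 to 151 against 81.5 to 123.4). By the mean log2 CPM over the members, the groups did not overlap for endothelial cells (6.04 to 6.40 in HY/HY against 6.52 to 6.65) but overlapped for the other 5 lists. Calls among these were few, with *Egfl7* (-0.58) of 17 endothelial genes and *Greb1* and *Areg* of 22 mammary genes lower. The call of *Egfl7* was lost in 15 of 21 alternatives, among them the omission of any 1 library at 8°C, and that of *Greb1* in 9 of 20, whereas *Areg* kept its call in every alternative. The part of these cells in the genes lower or higher in HY/HY was not tested.

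3 sets of genes were picked after the values of the higher genes were seen, and they serve only as a description. Of 28 complement genes tested, 8 were higher and 0 lower. *C1ra*, a protease of the C1 complex, was at 35.5, 34.5 and 38 CPM in wild type and 85.6, 58.8 and 74 CPM in HY/HY (log2 fold change 1.01 ± 0.17 SE, adjusted p = 0.00655). *Serping1*, the C1 inhibitor, was at 46.9, 40.4 and 47.3 CPM in wild type and 98.8, 70.3 and 92.9 CPM in HY/HY (log2 fold change 0.96 ± 0.22 SE, adjusted p = 0.0229). Both genes lay wholly above wild type, and *C1s1*, *C2*, *C1qc*, *C3ar1* and *C5ar1* were also higher. The count, which was taken without each library after seeing the data, was 5 without HY/HY replicate 2, 3 without wild-type replicate 1 or 3 and 1 without any other library at 8°C. Of 12 small leucine-rich proteoglycans 3 were higher, *Dcn*, *Lum* and *Ogn* (0.98), and 0 without wild-type replicate 2, wild-type replicate 3 or HY/HY replicate 1 and 1 without HY/HY replicate 3. Of 7 genes of serine and cysteine synthesis *Phgdh* (1.22), *Psat1* and *Cbs* (1.36) were higher and the cytosolic *Shmt1* (-0.86) was lower. None of these was higher without wild-type replicate 1, wild-type replicate 2 or HY/HY replicate 3, a count of 0, and 1 was without HY/HY replicate 1, while 1 gene was lower whichever library at 8°C was left out.

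The comparison of the same genotypes at 30°C, in other libraries, gives the genotype difference without cold. Some of those libraries stood apart: in wild-type replicate 2 the skeletal muscle list summed to 1775 CPM, against 43.7 to 95.2 CPM in the other 5, and the keratinocyte list to 836 CPM, against 31.9 to 200.3 CPM. In HY/HY replicate 3, reads on mitochondrial DNA were 16.8%, against 9.30% and 9.76% in the other HY/HY libraries, and the mammary list summed to 1535 CPM, the lowest of the 6. Their part in the values at 30°C was not tested. At 30°C 73 genes were lower and 93 higher, 0.441% and 0.562% of all genes tested. Of the 249 genes higher at 8°C, 224 (90.0%) had a positive log2 fold change at 30°C as well, against 49.0% of all genes, with a median of 0.46. The call itself was shared by 20 genes, and 0 were called the opposite way. Of the 731 genes lower at 8°C, 336 (46.0%) had a negative log2 fold change at 30°C, against 51.0% of all genes, with a median of 0.04, and 15 shared the call and 4 were called higher. The share for the higher genes was 77.2% without HY/HY 30°C replicate 3. That for the lower genes was 58.3% without HY/HY 30°C replicate 3, 52% without wild-type 30°C replicate 2 and 51.7% with library totals. The 51.0% of all genes belongs to the main fit, so these shares are not set against it. A test of the difference between the genotype effects (interaction, adjusted p under 0.05) passed for 268 of the lower genes and for 9 of the higher genes, where 2.07% and 0.169% of all genes passed in the respective direction. These genes were chosen on the 8°C difference that the interaction contains, so nothing is read from the excess.

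**Figure D5:**
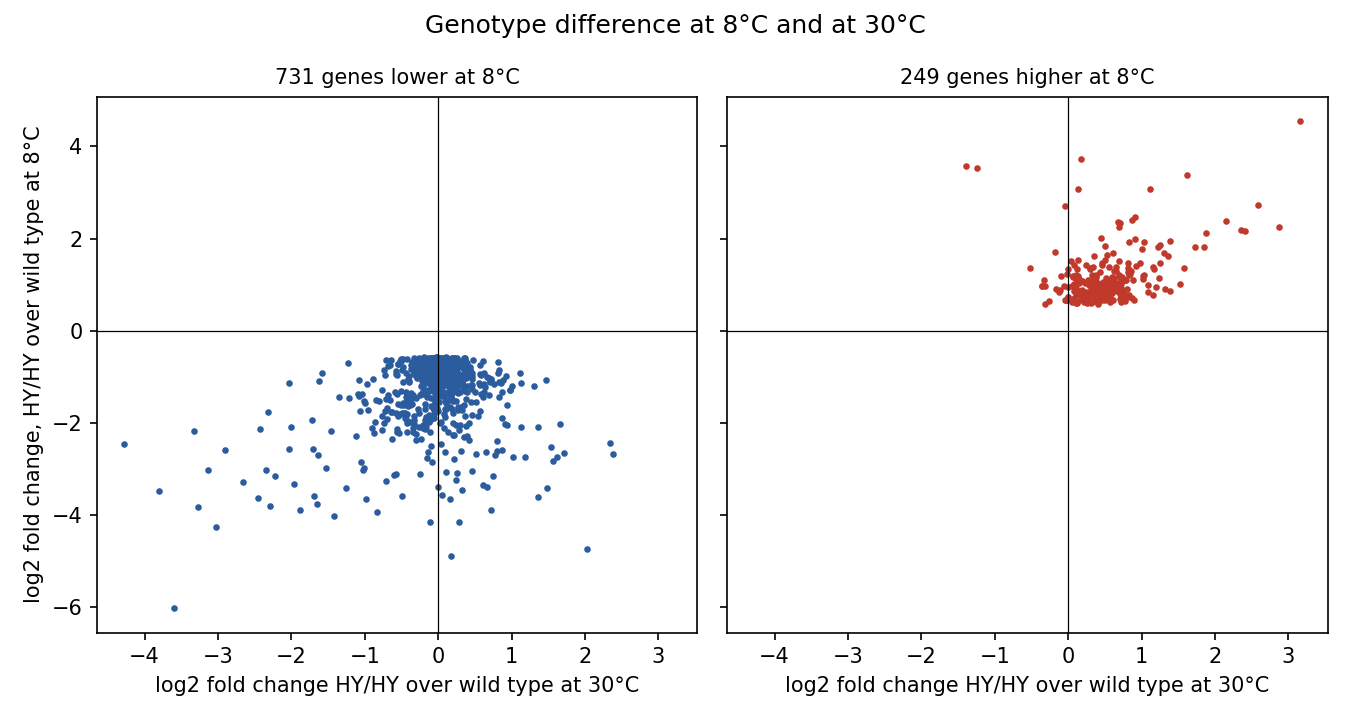
Log2 fold change of HY/HY over wild type at 8°C (vertical axis) against that at 30°C (horizontal axis) for the genes called lower (left) and higher (right) at 8°C, 1 point per gene. The lower genes spread to both sides of 0 at 30°C, whereas 224 of the 249 higher genes lie to the right of 0.

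Genes higher at both temperatures included *Clmp*, *Heph*, *Ctsc*, *Scn7a*, *Lox*, *Adamts5*, *Col15a1* and *Rpl39l*. At 30°C *Clmp* was at 23.5, 25.3 and 29.6 CPM in wild type and 43.4, 36 and 47.2 CPM in HY/HY, a log2 fold change of 0.69 (adjusted p = 0.0459). *Adamts5*, a protease that cleaves aggrecan and versican, was at 36.7, 52.2 and 31.2 CPM in wild type and 109, 100.4 and 137 CPM in HY/HY, with 1.52 (adjusted p = 0.0162). *Rpl39l*, a ribosomal protein gene best known from testis, was at 0.227, 0.18 and 0.744 CPM in wild type and 2.4, 1.76 and 1.46 CPM in HY/HY, with 2.35 (adjusted p = 0.0357), and at 8°C at 1.19, 1.36 and 0.834 CPM in wild type and 4.53, 4.88 and 5.93 CPM in HY/HY (log2 fold change 2.18 ± 0.40 SE, adjusted p = 0.00839), where the adjusted p was 0.0504 without wild-type replicate 3. The groups did not overlap at 30°C for these 3 genes. *Apoe* and *Agt*, by contrast, had 0.22 (adjusted p = 0.497) and 0.13 (adjusted p = 0.943) at 30°C, and their interaction was not called. For *Lep*, the wild-type libraries at 30°C (352, 236 and 294 CPM) lay above those at 8°C, and the HY/HY libraries at 30°C ran from 244.5 to 942 CPM.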

How the data were processed

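RNA of scWAT was sequenced in 12 libraries, 3 per genotype and temperature, as pairs of 50-base reads from TruSeq libraries. The authors trimmed with fastp and aligned with STAR to mm10; their methods name GENCODE M25 for FPKM from StringTie, which were not used here. The counts have the layout of STAR's gene counts, and their annotation is not given in the sources used here. The submitters' processing notes also name FastQC. The deposited files hold whole-number counts per gene for both strands and for each strand, and column 4, the sense strand (95.6% to 96.2% of stranded counts at 8°C), was used. The 4 rows that name no gene were left out of library sizes. Unmapped pairs were 25.5% to 27.5%, multimapping pairs 28.4% to 32.2%, pairs on no gene 1.99% to 2.32% and ambiguous pairs 0.962% to 1.09% of each library at 8°C.

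All 12 libraries were fitted in edgeR 4.0.16 (R 4.3.3; filterByExpr, TMM, glmQLFit, glmQLFTest) with a mean per group, leaving 16540 of 55401 genes. SE is the log2 fold change over the root of F. CPM are on the TMM-scaled library size. Symbols (32589 IDs) came from the reference tables, moved to RefSeq symbols where a synonym was unique, and 2610 IDs with shared symbols have none. Overlapping genes and near-identical copies share reads, so such genes are uncertain. In simulated data with 50 genes changed per fold size, 16% of the genes changed 1.5-fold were called at 8°C, 52% at 2-fold, 84% at 4-fold and 98% at 8-fold, with 7 of 16340 unchanged genes called. Counts allow no more precision than these depths, and with 3 libraries a group a permutation p cannot go below 0.1, so none was used. The sequence of promoters came from RefSeq, GRCm38.p6.

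Genes named by rule were, in each direction, the 12 largest changes with at least 30 mean counts and no overlap, the 8 with most reads, the 10 with the smallest p, *Kdm3a* and the genes named by the study, and called members of 41 lists. The members and lists were chosen with earlier results of these data known. DESeq2 1.42.0, other scalings and filters, both strands, the 6 libraries at 8°C alone, a replicate block and leaving out each library were alternatives. Many genes picked by the rule enter only through counts, and some are not reported here.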

Additional observations from a re-analysis of the deposited data

Results flagged for a closer look

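Genes picked for the size of their change, their reads or their p, or named by the study, whose genotype difference at 8°C differed from that at 30°C are given here with the difference of the log2 fold changes (8°C minus 30°C, edgeR quasi-likelihood interaction term over all 12 libraries) and its adjusted p in brackets. Among genes of fatty acid activation, mitochondria and iron-sulfur proteins these were *Acsl5* -1.71 (0.00471), *Letmd1* -2.21 (0.00787), *Sirt3* -1.53 (0.00691), *Cisd3* -2.07 (0.00471), *Ciapin1* -1.31 (0.00787) and *Prdx5* -0.69 (0.0487). Subunits of the respiratory chain were *Ndufs8* -1.54 (0.00787), *Sdhb* -1.43 (0.017), *Cyc1* -1.73 (0.0132), *Cox5a* -1.97 (0.0113), *Cox7a1* -3.78 (0.0113), *Atp5a1* -1.13 (0.035) and *Atp5j2* -1.29 (0.0275). Enzymes of sugar and purine metabolism were *Gapdh* -1.96 (0.0146), *Eno1* -2.27 (0.0135), *Fbp2* -3.17 (0.00787), *Pgls* -1.14 (0.00787) and *Gmpr* -2.49 (0.00787). Carriers, secreted factors and *Adprhl1* were *Adprhl1* -3.95 (0.0273), *Fgf21* -6.77 (0.0345), *Kng2* -4.97 (0.0113) and *Slco4a1* -2.67 (0.0459). Regulators were *Ppargc1a* -2.19 (0.039), *Gabpa* -0.71 (0.0459) and *Flcn* -0.74 (0.0218). The genes were chosen on the 8°C difference, which this term contains. In all of these the genotype difference was more negative at 8°C than at 30°C. A positive difference was found for *Cachd1* 1.39 (0.0316) and *Slc29a3* 0.68 (0.0372), a subunit-like protein of calcium channels and a nucleoside carrier.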

How the results depend on the processing

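Of the called genes that the naming rule picked, most of which enter the text only through counts, 114 of 244 lower and 13 of 53 higher kept their call in every alternative, and 0 changed direction. The number of lower genes was 480 with library totals, 292 at an adjusted p under 0.01, and 301 to 832 when 1 of the 12 libraries was left out. The number of higher genes was 535 with library totals, 634 with only the 6 libraries at 8°C, 406 with DESeq2, 25 at an adjusted p under 0.01, and 43 to 408 when 1 library was left out. The causes of these shifts were not tested, apart from the shift of all genes under library totals given above. Some genes without a call changed sign. *Fis1* did so with library totals (0.06), a scaling that moved the median of all genes from 0.01 to 0.15, so nothing is read from it. *Oma1* did so without wild-type 8°C replicate 2 (-0.03) or HY/HY 8°C replicate 3 (-0.01). *Pparg* did so without HY/HY 8°C replicate 3 (-0.05, and up to 0.27 without any other library). *mt-Nd3* did so with both strands (0.29) or without wild-type 8°C replicate 3 (0.42, against as low as -5.64 without another library).

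The labels give both genotypes the same replicate numbers and do not say whether the numbers pair the libraries. Deviations from the group mean of same-numbered libraries correlated at 0.12, -0.04 and 0.11. HY/HY replicates 1 and 3 correlated best with the wild-type library of their number, replicate 3 by little (0.114 against 0.113 with wild-type replicate 2). HY/HY replicate 2 correlated best with wild-type replicate 1 (0.118). With 3 libraries a group these values cannot decide whether libraries were paired. With a replicate block 805 genes were lower and 397 higher, and 682 were higher with the block and only the 6 libraries at 8°C, an alternative chosen after seeing the data. With 3 libraries a group, 16% of genes simulated at 1.5-fold and 52% of those at 2-fold were called, so small changes were often missed in the simulation. It left 16340 of 16540 genes unchanged, whereas the data gave 731 lower and 249 higher genes. The adjustment of p depends on how many genes change, so these rates need not hold for the data. A call also needed a fold change above 1.5 or below 0.67. The parts of this limit and of the number of libraries were not tested.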
